A study of Saccharomyces cerevisiae with 15 samples.

Results

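The mRNA levels of 10 genes of peroxide and superoxide defence in the budding yeast Saccharomyces cerevisiae were followed across 5 groups of libraries. The genes were chosen by name and function, as rows with given systematic identifiers, and are 10 of the 7126 rows of the deposited table. They encode the peroxiredoxins TSA1 (YML028W), TSA2 (YDR453C), AHP1 (YLR109W) and PRX1 (YBL064C), the peroxidase GPX2 (YBR244W), the thioredoxins TRX1 (YLR043C) and TRX2 (YGR209C), the thioredoxin reductase TRR1 (YDR353W), and the superoxide dismutases SOD1 (YJR104C) and SOD2 (YHR008C). All 10 were found and all 10 passed the filter on low values. The series has 15 libraries of mRNA from mid-log cultures in rich medium, with 3 biological replicates in each of 5 groups. One group carried the wild-type HSF1 allele and was kept at 30 °C. The hsf1-mN, hsf1-mC and hsf1-mNmC groups, here mN, mC and mNmC, were also kept at 30 °C and carried HSF1 alleles mutated at the amino-terminal Hsp70 site, the carboxyl-terminal Hsp70 site or both. The fifth group carried wild-type HSF1 and was shifted to 37 °C for 15 min before harvest. Hsf1 is the factor that switches on heat shock genes, and the series asks how its contacts with the chaperone Hsp70 set the expression of its targets. The sources used here do not give the strain background or say whether a strain is 1 clone.

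Peroxiredoxins reduce hydrogen peroxide and organic peroxides with a reactive cysteine, which is then restored mainly by thioredoxin. Thioredoxin is in turn reduced by thioredoxin reductase with electrons from NADPH, so that a peroxidase, a thioredoxin and a reductase can act as a relay. Superoxide dismutases act upstream and turn superoxide into hydrogen peroxide, with the copper and zinc enzyme Sod1 mostly in the cytosol and the manganese enzyme Sod2 in the mitochondrial matrix. In yeast many genes of this relay are known targets of the oxidative stress factors Yap1 and Skn7, and some are also induced by the general stress factors Msn2 and Msn4.

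The sequence before the start codon is shown for the 3 genes with the highest rises at 37 °C, TSA2, PRX1 and SOD2, and for TRX2, which had more Yap1-type sites than any other of the 10 genes. Each line runs 5′ to 3′ from 250 bases before the start codon to 50 bases into the coding sequence and was read by gene identifier from the RefSeq R64 genome. The deposited table holds no coordinates and the sources used here name no build for it, so the positions are those of R64 alone: chrIV:1365613-1365912 (minus strand) for TSA2, chrII:101107-101406 (minus strand) for PRX1, chrVIII:123541-123840 (minus strand) for SOD2 and chrVII:913178-913477 (minus strand) for TRX2. Capitals mark the matches, on either strand, to the Msn2 and Msn4 stress element AGGGG, the Yap1 element TTACTAA and the paired Hsf1 units GAANNTTC and TTCNNGAA.
TSA2: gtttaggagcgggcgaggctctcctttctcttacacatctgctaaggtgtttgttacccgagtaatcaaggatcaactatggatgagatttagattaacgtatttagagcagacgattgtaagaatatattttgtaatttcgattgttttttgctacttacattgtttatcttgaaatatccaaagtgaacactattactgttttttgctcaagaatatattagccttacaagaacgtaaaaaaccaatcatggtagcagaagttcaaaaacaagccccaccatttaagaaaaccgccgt
PRX1: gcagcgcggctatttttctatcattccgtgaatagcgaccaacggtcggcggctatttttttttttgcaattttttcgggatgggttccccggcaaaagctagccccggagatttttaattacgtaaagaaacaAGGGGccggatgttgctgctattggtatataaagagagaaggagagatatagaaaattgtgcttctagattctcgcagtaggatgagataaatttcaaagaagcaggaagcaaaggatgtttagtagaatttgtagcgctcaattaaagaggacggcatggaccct
SOD2: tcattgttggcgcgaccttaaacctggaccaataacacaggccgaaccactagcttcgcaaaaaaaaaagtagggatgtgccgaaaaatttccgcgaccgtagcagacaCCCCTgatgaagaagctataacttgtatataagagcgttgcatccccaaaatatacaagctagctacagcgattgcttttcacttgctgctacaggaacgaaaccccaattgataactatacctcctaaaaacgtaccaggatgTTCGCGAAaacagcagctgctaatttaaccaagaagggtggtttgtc
TRX2: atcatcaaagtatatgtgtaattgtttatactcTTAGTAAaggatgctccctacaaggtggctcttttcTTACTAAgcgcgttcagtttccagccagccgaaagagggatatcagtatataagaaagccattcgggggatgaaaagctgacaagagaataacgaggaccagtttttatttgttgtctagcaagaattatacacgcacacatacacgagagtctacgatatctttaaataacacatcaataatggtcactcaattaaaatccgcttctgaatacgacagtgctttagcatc
The stress element AGGGG was found in 6 of the 10 windows, those of TSA1, AHP1, PRX1, GPX2, SOD1 and SOD2, and in 21.6% of the 6001 windows of the same length at protein-coding genes. TTACTAA was found in 2, with 2 sites in TRX2, beginning 217 and 181 bases before the start codon, and 1 site in SOD1, against 7.45% of all windows. GAANNTTC was found in AHP1 alone (11.8% of all windows) and TTCNNGAA in SOD2 alone, where it lies inside the coding sequence (12.9% of all windows). A longer Hsf1 element of both units joined, which overlaps them, was found in none of the 10 windows and in 0.783% of all. TSA2, TRX1 and TRR1 had no match to any of these letters within their windows, which says nothing of sites farther away or spelled otherwise.

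Levels are given as FPKM, reads scaled to the length of the gene and to the size of the library, so levels of different genes can be compared. Libraries held 15462618 to 25409519 reads, recovered from the FPKM steps, and each of the 10 genes rested on at least 444 reads in every library. In bulk libraries, fewer cells with an mRNA and less of it per cell cannot be told apart. The libraries labelled mNmC replicate 3 and 37 °C replicate 3 went against their labels. Over all genes, no replicates of each other, the Spearman correlation of mNmC replicate 3 averaged 0.933 to the rest of its group and 0.997 to 37 °C replicates 1 and 2, and that of 37 °C replicate 3 averaged 0.931 to its own group and 0.997 to mNmC replicates 1 and 2. The mRNA of HSF1, the altered gene, read 52.1, 59.4 and 149.9 FPKM in mNmC replicates 1 to 3 and 158.9, 148.5 and 67.6 FPKM at 37 °C, against 152.2 to 158.1 FPKM in wild type at 30 °C, 86.1 to 109.7 in mN and 230.4 to 261.4 in mC. Results are therefore given both as labelled, with 15 libraries, and with 13 libraries, without this pair. Whole chromosomes also stood apart in mNmC: with 13 libraries the median log2 change against wild type was 0.70 over 150 genes of chromosome III and -0.62 over 125 genes of chromosome VI, beside 0.22 to 0.29 on each of the other 14. Library by library, over genes averaging 10 FPKM or more, chromosome VI stood at -0.71 and -0.64 in mNmC replicates 1 and 2 and at -0.73 in the library labelled 37 °C replicate 3, and at 0.29 in that labelled mNmC replicate 3. None of the 10 genes lies on either chromosome, and the part of this shift in their values was not tested. The part of the HSF1 mRNA level in the results for the mutants was not tested either. Outside this pair, mN replicate 1 was low in short genes: its values stood at a median of -0.36 on the log2 scale against the mean of mN replicates 2 and 3 for 2065 genes of up to 1000 bases, and at -0.09 for 3170 longer genes. The 10 genes have coding lengths of 312 to 960 bases and stood at a median of -0.37 in that library, with SOD1 at -0.97 and SOD2 at -0.65. The part of this library in the results for mN was not tested beyond leaving it out. All groups share 1 estimate of the spread of a gene. Leaving the library out can therefore change the SE and the calls of other groups, whose limma values stay the same.

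TSA2 encodes the stress-inducible paralog of the main cytosolic peroxiredoxin and had the largest rise of the 10 genes at 37 °C. It read 41.0, 42.6 and 39.1 FPKM in wild type at 30 °C, and 354.7 and 361.8 FPKM in replicates 1 and 2 at 37 °C. Replicate 3 at 37 °C read 58.5 FPKM, beside 59.6 and 60.6 FPKM in mNmC replicates 1 and 2, while mNmC replicate 3 read 341.0 FPKM. The single mutants lay between, with 70.4, 72.5 and 70.7 FPKM in mN and 52.1, 56.5 and 54.6 FPKM in mC. With 13 libraries the order from lowest to highest was wild type, mC, mNmC, mN and wild type at 37 °C, and no group overlapped the next. The log2 change of mNmC against mC did not pass, though (0.14, limma, adjusted p = 0.0878). With upper-quartile scaling of the 13 libraries it was -0.008. The log2 change against wild type was 3.10 ± 0.06 (SE, limma, adjusted p = 1.72e-11) at 37 °C, an 8.58-fold rise. It was 0.79 ± 0.05 in mN (adjusted p = 9.97e-06), 0.55 ± 0.06 in mNmC (adjusted p = 4.72e-05) and 0.40 ± 0.05 in mC (adjusted p = 0.00159). As labelled, only the rise at 37 °C passed the test among these 4 comparisons (2.24 ± 0.69, adjusted p = 0.0250). It did not pass without any 1 of the 3 libraries at 30 °C (adjusted p = 0.0630 to 0.0644) or without 37 °C replicate 1 or 2 (adjusted p = 0.108 and 0.106). Without 37 °C replicate 3 alone, the as-labelled change in mNmC, 1.37 ± 0.49, passed (adjusted p = 0.0467).

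TSA1, the abundant cytosolic peroxiredoxin, went the other way in the double mutant and had no called change with heat. It read 4778, 4613 and 4598 FPKM in wild type at 30 °C and 5092 and 5168 FPKM in replicates 1 and 2 at 37 °C. In mNmC replicates 1 and 2 it read 2892 and 2543 FPKM, lower than in every other library except 37 °C replicate 3, which read 2848 FPKM. Replicate 3 of mNmC read 4992 FPKM. The single mutants overlapped each other, at 4085 to 4490.1 FPKM in mN and 4095 to 4442 FPKM in mC. With 13 libraries TSA1 fell in mNmC by 0.78 ± 0.08 on the log2 scale (adjusted p = 2.76e-05). No change was called at 37 °C (0.14 ± 0.08, 95% confidence interval -0.04 to 0.32), in mN (-0.12, interval -0.28 to 0.04) or in mC (-0.11, interval -0.27 to 0.05). As labelled the values were -0.14 ± 0.26 at 37 °C, opposite in sign, -0.12 ± 0.26 in mN and -0.11 ± 0.26 in mC, none of which passed. As labelled the change in mNmC was -0.49 ± 0.26 (adjusted p = 0.185), and without mNmC replicate 3 alone it passed (-0.78 ± 0.23, adjusted p = 0.0277). The coding sequences of TSA1 and TSA2 are 78.5% identical over 591 bases, with no identical run longer than 14 bases. The sources used here do not say how reads that match both were assigned.

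AHP1, a peroxiredoxin known for reducing alkyl hydroperoxides, had the highest level of the 10 genes in each of the 15 libraries. It read 6552, 6579 and 6436 FPKM in wild type at 30 °C, 9667 and 9697 FPKM in replicates 1 and 2 at 37 °C, and 4869.7 and 4400.1 FPKM in mNmC replicates 1 and 2. The libraries labelled replicate 3 read 8787 FPKM in mNmC and 4663 FPKM at 37 °C. AHP1 thus stood above wild type at 30 °C in replicates 1 and 2 at 37 °C. It stood below wild type in mNmC replicates 1 and 2, and neither pair of libraries overlapped wild type. With 13 libraries AHP1 rose at 37 °C (0.57 ± 0.11, adjusted p = 6.38e-04) and fell in mNmC (-0.49 ± 0.11, adjusted p = 0.00336). In mN, with 4249.9, 5453 and 5517 FPKM, the fall also passed (-0.37 ± 0.10, adjusted p = 0.0219), and it was -0.25 ± 0.06 (adjusted p = 0.00771) with mN replicate 1 left out as well. No change was called in mC (-0.08, interval -0.29 to 0.13), where the 3 libraries read 6142 to 6211 FPKM. As labelled AHP1 passed in none of these 4 comparisons, with 0.22 ± 0.30 at 37 °C and -0.19 ± 0.30 in mNmC.

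PRX1, the mitochondrial peroxiredoxin, rose with heat. It read 95.8, 94.4 and 102.2 FPKM in wild type at 30 °C and 421.7 and 441.2 FPKM in replicates 1 and 2 at 37 °C, with 121.1 FPKM in replicate 3. The mNmC libraries read 121.8, 121.2 and, in replicate 3, 398.9 FPKM, and mN and mC spanned 96.1 to 129.2 and 102.0 to 124.8 FPKM. All 3 mutants overlapped each other, and mN and mC overlapped wild type. The log2 change at 37 °C was 2.14 ± 0.12 with 13 libraries (adjusted p = 4.41e-08) and 1.53 ± 0.49 as labelled (adjusted p = 0.0293). The as-labelled call was lost without any 1 library of wild type at 30 °C (adjusted p = 0.0654 to 0.0766) or without 37 °C replicate 1 or 2 (adjusted p = 0.121 and 0.122), with upper-quartile scaling (adjusted p = 0.0546) and with the replicate number as a block (adjusted p = 0.0533). With 13 libraries no mutant passed, at 0.32 ± 0.12 in mNmC (adjusted p = 0.0508), 0.25 ± 0.11 in mC and 0.23 ± 0.11 in mN. With mN replicate 1 left out too, each of these passed (adjusted p = 0.00497, 0.0192 and 0.00681). The values in mNmC and mC stayed the same there, and their SE fell to 0.08 and 0.07. With upper-quartile scaling of the 13 libraries mN passed (0.24 ± 0.07, limma, adjusted p = 0.0383). In that fit mNmC stood at 0.08 ± 0.08 (adjusted p = 0.460) and mC at 0.17 ± 0.07 (adjusted p = 0.162).

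GPX2, a peroxidase of the glutathione peroxidase family that can use thioredoxin, fell in every group set against wild type at 30 °C. It read 217.6, 209.0 and 228.2 FPKM there, and 79.9, 74.2 and, in replicate 3, 118.4 FPKM at 37 °C. In mNmC it read 121.0, 110.1 and, in replicate 3, 77.0 FPKM, in mN 114.7, 134.5 and 131.0 FPKM, and in mC 117.7, 141.1 and 156.5 FPKM. Each of these 12 libraries lay below the 3 of wild type at 30 °C, and the 3 mutants overlapped in the order mNmC, mN, mC. With 13 libraries the log2 change was -1.49 ± 0.11 at 37 °C (adjusted p = 4.95e-07), -0.91 ± 0.11 in mNmC (adjusted p = 1.03e-04), -0.78 ± 0.10 in mN (adjusted p = 7.85e-04) and -0.66 ± 0.10 in mC (adjusted p = 0.00279). As labelled the falls at 37 °C (-1.29 ± 0.19, adjusted p = 6.41e-04) and in mNmC (-1.10 ± 0.19, adjusted p = 0.00180) passed, and it missed the threshold in mN and mC (adjusted p = 0.129 and 0.203). In mN it passed without 37 °C replicate 3 alone (adjusted p = 0.0483).

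**Figure D1:**
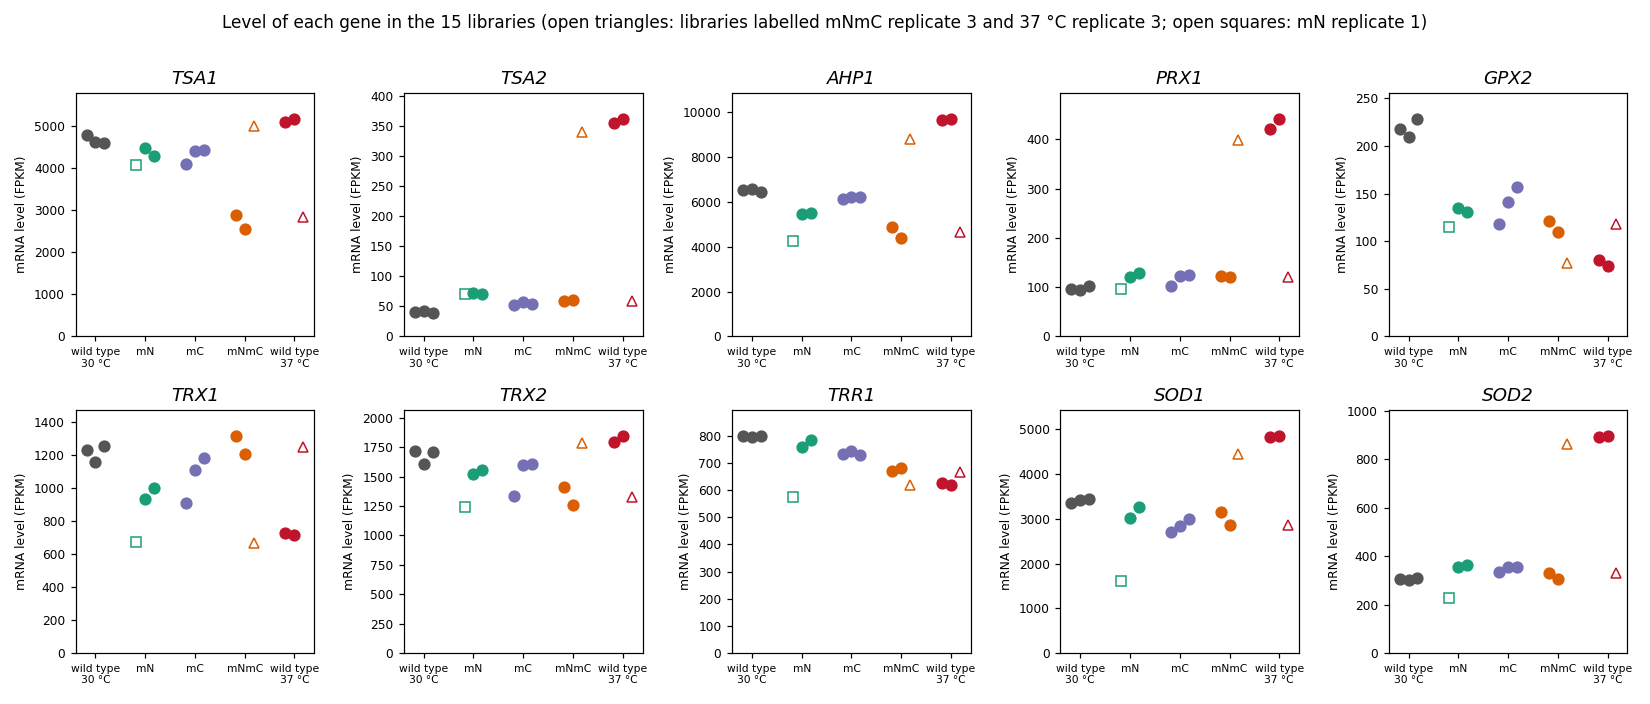
Level (FPKM, linear axes from 0) of each of the 10 genes in the 15 libraries, by group, with 1 point per library. TSA2 sits near 41 FPKM in wild type at 30 °C and at 341.0 to 361.8 FPKM in 37 °C replicates 1 and 2 and in the library labelled mNmC replicate 3, while GPX2 is highest in wild type at 30 °C.

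The cytosolic thioredoxins TRX1 and TRX2, which hand electrons to peroxiredoxins, had different patterns. TRX1 read 1229.9, 1156 and 1254 FPKM in wild type at 30 °C, 724.4 and 712.9 FPKM in replicates 1 and 2 at 37 °C, and 1316 and 1207 FPKM in mNmC replicates 1 and 2. The libraries labelled replicate 3 read 669.4 FPKM in mNmC and 1250.2 FPKM at 37 °C, while mN read 673.5, 933.1 and 999.96 FPKM and mC 907.3, 1106 and 1182 FPKM. With 13 libraries TRX1 fell at 37 °C (-0.75 ± 0.16, adjusted p = 0.00119) and in mN (-0.50 ± 0.14, adjusted p = 0.0288), and its change in mNmC was 0.06 (interval -0.29 to 0.40). Without mN replicate 1 the value in mN was -0.33 ± 0.09 (adjusted p = 0.0230). As labelled it passed in none of the 4 comparisons with wild type, with -0.49 ± 0.28 at 37 °C, and without 37 °C replicate 3 alone that fall passed (-0.75 ± 0.26, adjusted p = 0.0287).

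TRX2, the paralog with Yap1-type sites in its window above, changed little with heat. It read 1718, 1606 and 1708 FPKM in wild type at 30 °C, 1794, 1847 and 1325 FPKM at 37 °C, and 1415, 1258 and 1784 FPKM in mNmC, each in the order of replicates 1 to 3. In mN it spanned 1240.2 to 1559.7 FPKM and in mC 1333 to 1608 FPKM. With 13 libraries the change at 37 °C was 0.12 (interval -0.14 to 0.37, adjusted p = 0.383), and the fall in mNmC passed (-0.33 ± 0.12, adjusted p = 0.0356). TRX2 passed in no comparison as labelled. The coding sequences of TRX1 and TRX2 are 73.0% identical, with no identical run longer than 17 bases. The ratio of TRX1 to TRX2 was 0.716 to 0.734 in wild type at 30 °C, 0.386 and 0.404 in 37 °C replicates 1 and 2, and 0.930 and 0.960 in mNmC replicates 1 and 2. In mN it was 0.543 to 0.641 and in mC 0.681 to 0.735, so mC alone overlapped wild type, and the libraries labelled replicate 3 read 0.375 in mNmC and 0.943 at 37 °C.

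TRR1, the cytosolic reductase that serves both thioredoxins, had group means within 1.28-fold of each other with 13 libraries, the narrowest range of the 10 genes there. It read 799.6, 794.0 and 798.3 FPKM in wild type at 30 °C, 624.7, 618.2 and 665.7 FPKM at 37 °C and 671.6, 680.4 and 620.03 FPKM in mNmC, in the order of replicates 1 to 3. Every library of the other 4 groups lay below the 3 of wild type at 30 °C, with mN at 572.9, 757.6 and 782.9 FPKM and mC at 729.8 to 743.9 FPKM. With 13 libraries the fall at 37 °C passed (-0.36 ± 0.11, adjusted p = 0.0138), and the values in mNmC (-0.24 ± 0.11), mN (-0.19 ± 0.10) and mC (-0.12 ± 0.10) did not. With mN replicate 1 left out as well, -0.24 ± 0.04 in mNmC (adjusted p = 3.79e-04) and -0.12 ± 0.04 in mC (adjusted p = 0.0281) passed, while the value in mN shrank to -0.05 ± 0.04 (adjusted p = 0.387). As labelled the value at 37 °C was -0.33 ± 0.12 (adjusted p = 0.0530). It passed without mN replicate 1 (adjusted p = 0.00849), mNmC replicate 3 (0.0426) or 37 °C replicate 3 (0.0400), and the value in mNmC passed without mN replicate 1 (-0.28 ± 0.08, adjusted p = 0.0197).

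The superoxide dismutase genes both stood highest at 37 °C. SOD2 read 304.7, 303.0 and 308.6 FPKM in wild type at 30 °C, 891.1, 897.9 and, in replicate 3, 332.4 FPKM at 37 °C, and 329.4, 306.3 and, in replicate 3, 863.4 FPKM in mNmC. It rose at 37 °C by 1.55 ± 0.16 with 13 libraries (adjusted p = 5.05e-06), a 2.92-fold rise, and its as-labelled value was 1.07 ± 0.41 (adjusted p = 0.0566). That value passed without mNmC replicate 3 (adjusted p = 0.0168) or 37 °C replicate 3 (1.55 ± 0.36, adjusted p = 0.00369). No mutant passed with 13 libraries, with mN at 228.7 to 363.3 FPKM and mC at 335.3 to 354.8 FPKM. Without mN replicate 1 as well, SOD2 rose in mN (0.24 ± 0.05, adjusted p = 0.00369) and in mC (0.19 ± 0.04, adjusted p = 0.00607).

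SOD1 read 3354, 3408 and 3443 FPKM in wild type at 30 °C. At 37 °C it read 4826, 4854 and, in replicate 3, 2855 FPKM. In mNmC it read 3148, 2859 and, in replicate 3, 4439 FPKM, in mC 2709.9, 2838 and 2986 FPKM, and in mN 1606, 3025 and 3261 FPKM. Wild type at 30 °C overlapped none of the other 4 groups of the 13 libraries, yet SOD1 passed in no comparison with wild type, with mN replicate 1 at 1606 FPKM. The change was 0.51 ± 0.23 at 37 °C (adjusted p = 0.0698), and with that library left out as well it was 0.51 ± 0.06 (adjusted p = 1.55e-05). As labelled SOD1 stood at 0.25 ± 0.28 at 37 °C and at 0.01 ± 0.28 in mNmC, and passed in none of the 4 comparisons with wild type. Without the pair and mN replicate 1 it fell in mC (-0.26 ± 0.06, adjusted p = 0.00522) and in mNmC (-0.18 ± 0.06, adjusted p = 0.0253). The ratio of SOD2 to SOD1 was 0.0889 to 0.0909 in wild type at 30 °C and 0.185 in both replicates 1 and 2 at 37 °C. It was 0.105 and 0.107 in mNmC replicates 1 and 2, 0.111 to 0.142 in mN and 0.119 to 0.125 in mC, none of which overlapped wild type.

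**Figure D2:**
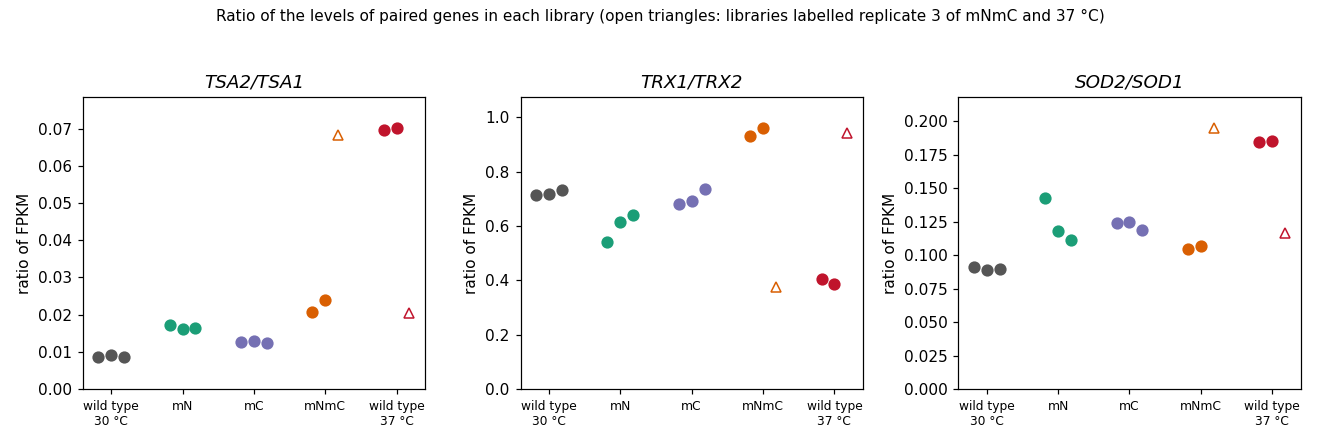
Ratio of FPKM of TSA2 to TSA1, TRX1 to TRX2 and SOD2 to SOD1 in each library (linear axes from 0, 1 point per library). The TRX1 to TRX2 ratio lies below wild type in 37 °C replicates 1 and 2 (0.386 and 0.404) and above it in mNmC replicates 1 and 2 (0.930 and 0.960).

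Heat, read in wild type alone, shows how many of the 10 genes responded. With 13 libraries TSA2, PRX1, SOD2 and AHP1 rose, GPX2, TRX1 and TRR1 fell, and TSA1, TRX2 and SOD1 did not pass. That is 4 of 10 higher and 3 lower, beside 47.0% of all 6365 tested genes called higher and 19.0% called lower. The median change of the 10 genes was 0.32 and that of all genes 0.28. As labelled 3 of the 10 passed, TSA2, PRX1 and GPX2, beside 38.1% of 6399 genes. Scaling each of the 13 libraries to the same upper quartile brought the median of all genes to 0.04 and kept all 7 calls, with TSA2 at 2.85, PRX1 at 1.88, SOD2 at 1.29 and AHP1 at 0.32. The falls there were -1.74 for GPX2, -1.01 for TRX1 and -0.61 for TRR1, and the uncalled values of TSA1 (-0.12) and TRX2 (-0.13) changed sign.

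**Figure D3:**
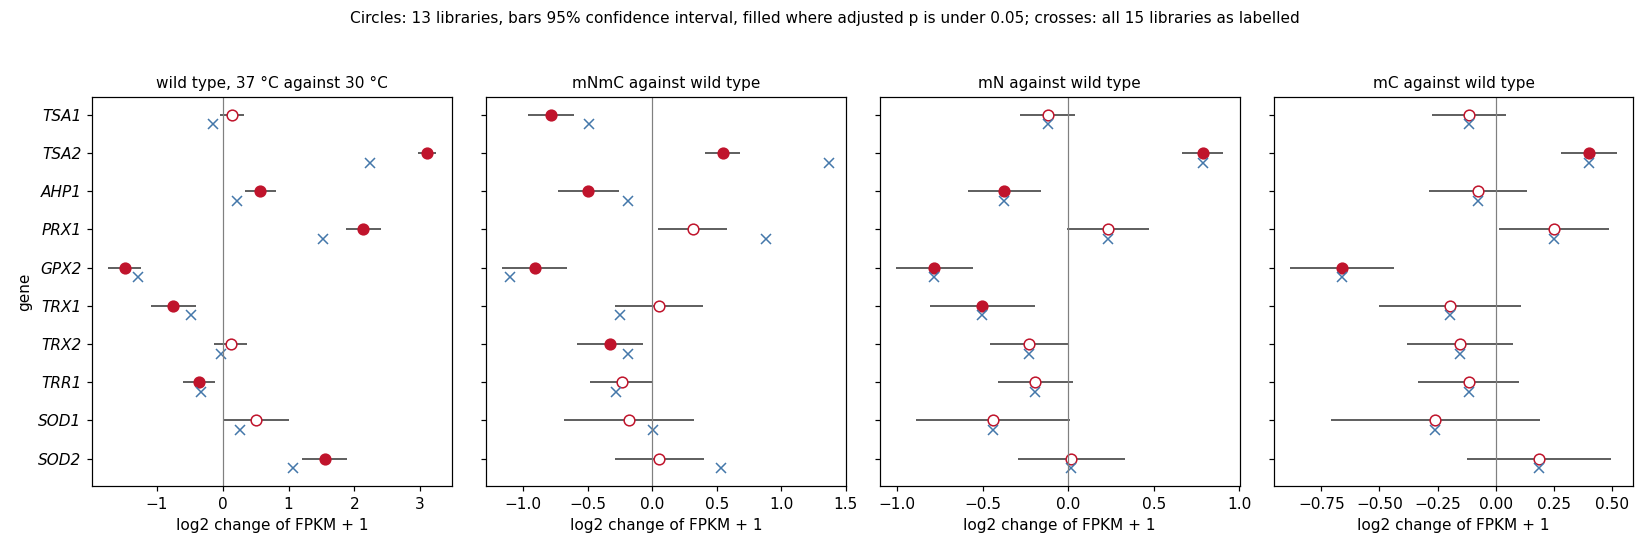
Log2 change of FPKM + 1 of the 10 genes in 4 comparisons with wild type at 30 °C (each panel has its own linear axis), with circles for the fit on 13 libraries, bars for the 95% confidence interval, filled circles for adjusted p under 0.05, and crosses for the 15 libraries as labelled. AHP1 lies at 0.57 with heat and at -0.49 in mNmC, and GPX2 lies below 0 in all 4 panels.

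With both sites mutated, and 13 libraries, TSA2 rose over wild type at 30 °C and TSA1, AHP1, GPX2 and TRX2 fell, while PRX1, TRX1, TRR1, SOD1 and SOD2 did not pass. The share was 1 of 10 higher and 4 lower, beside 40.7% of all genes called higher and 7.43% called lower, and the median change was -0.21 for the 10 genes and 0.25 for all genes. As labelled GPX2 alone passed, beside 26.9% of all genes. Upper-quartile scaling, which brought the median of all genes to 0.03, kept the 5 calls and added TRR1 (-0.47 ± 0.07). It gave TSA2 a rise of 0.31 and the falls -1.02 for TSA1, -0.73 for AHP1, -1.15 for GPX2 and -0.56 for TRX2, and it turned the uncalled values of TRX1 (-0.18) and SOD2 (-0.18) below 0.

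The single mutants were set against wild type in the same way. In mN, with 13 libraries, TSA2 rose and GPX2, TRX1 and AHP1 fell, 1 of 10 higher and 3 lower beside 12.9% and 5.39% of all genes. In mC, TSA2 rose and GPX2 fell, 1 higher and 1 lower beside 12.4% and 2.47% of all genes. Upper-quartile scaling of the 13 kept these calls and added a rise of PRX1 in mN (0.24 ± 0.07). Beside them 1308 of 6365 genes were called in mN and 721 in mC, in either direction. As labelled limma called none of the 10 in mN or mC, beside 0.453% and 0.188% of all genes. At an unadjusted p under 0.05 it counted 1 of the 10 in each, where 745 and 680 of 6399 genes did so. Voom on recovered reads with 15 libraries also called none of the 10, beside 23 and 4 of 5818 genes. The comparisons with wild type share its 3 libraries at 30 °C.

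Adding the second mutation was read by setting mNmC against each single mutant, again with 13 libraries. These groups also differed in HSF1 mRNA and in chromosomes III and VI, as given above, and the part of these was not tested. TSA1 was lower than in mN (-0.66 ± 0.08, adjusted p = 1.05e-04) and lower than in mC (-0.67 ± 0.08, adjusted p = 1.06e-04). TRX1 was higher in mNmC than in mN (0.56 ± 0.16, adjusted p = 0.0127). With mN replicate 1 left out as well, TRX1 stood at 0.38 ± 0.10 (adjusted p = 0.00931), and with upper-quartile scaling of the 13 at 0.31 ± 0.11 (adjusted p = 0.0412). TSA2 was lower in mNmC than in mN (-0.24 ± 0.06, adjusted p = 0.00815), and AHP1 was lower than in mC (-0.42 ± 0.11, adjusted p = 0.0108). Against mN this was 1 higher and 2 lower of 10, beside 39.7% and 10.6% of all genes, and against mC none higher and 2 lower, beside 27.5% and 9.54%. Upper-quartile scaling of the 13 libraries took the all-gene median from 0.24 to 0.01 against mN and from 0.17 to 0.02 against mC. It gave 1 higher and 6 lower against mN, beside 2754 of 6365 genes called in either direction. Against mC it gave 0 higher and 5 lower, beside 2263 of 6365 genes. As labelled limma called none of the 10 in either, beside 22.7% and 14.6% of all genes, with none against mN and 1 against mC at an unadjusted p under 0.05, where 2403 and 1881 of 6399 genes did so. Voom called none of the 10, beside 951 and 768 of 5818 genes.

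Whether the effects of the 2 mutations add up on the log2 scale was tested by their interaction. As given above, mNmC also differed in HSF1 mRNA and in chromosomes III and VI. The part of these in the interaction was not tested. For TSA2 each single mutant stood above wild type, and mNmC rose by less than the sum of the single mutants, with an interaction of -0.64 ± 0.08 (adjusted p = 2.33e-04). For TSA1 the fall in mNmC went beyond the sum of the single mutants (-0.55 ± 0.11, adjusted p = 0.00323). For GPX2 the falls of the single mutants summed to more than that of mNmC (0.53 ± 0.15, adjusted p = 0.0203), and for TRX1 mNmC lay above the sum (0.75 ± 0.21, adjusted p = 0.0172). These were 2 positive and 2 negative calls of 10 with 13 libraries, beside 22.2% and 12.9% of all genes. Without mN replicate 1 the same 4 passed with the same sign, with TRX1 at 0.58 ± 0.13, and SOD2 joined them (-0.37 ± 0.07, adjusted p = 0.00111). As labelled limma called none of the 10, beside 4.69% of all genes, with none at an unadjusted p under 0.05, where 1346 of 6399 genes did so. Voom called none of the 10, beside 360 of 5818 genes.

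The double mutant without heat, set directly against heated wild type, differed in 9 of the 10 genes with 13 libraries, where 2 replicates stood in each group. GPX2 and TRX1 were higher in mNmC, 2 of 10 beside 28.1% of all genes, and 7 were lower, beside 28.8% of all genes. The largest of the lower values was that of TSA2 (-2.56 ± 0.07, adjusted p = 3.86e-10), and TSA1 (-0.92 ± 0.09, adjusted p = 4.63e-06), AHP1 (-1.06 ± 0.12, adjusted p = 1.37e-05), PRX1 (-1.82 ± 0.13, adjusted p = 5.74e-07) and SOD2 (-1.49 ± 0.17, adjusted p = 2.05e-05) were among them. TRR1 did not pass (0.12, interval -0.15 to 0.39). As labelled, limma called 0 of the 10 and 0 of 6399 genes (0%), with 0 of the 10 and 65 of all genes at an unadjusted p under 0.05, and voom also called 0 of the 10.

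Genes whose changes from wild type were most like those of a member were ranked by the root mean square difference of the log2 changes over 4 groups with 13 libraries, among 5387 other genes that averaged 10 FPKM or more. This was done for the 5 members with a span of group means of at least 2-fold. Nearest to TSA2 were GAD1 (YMR250W, glutamate decarboxylase, 0.196) and GDB1 (YPR184W, the glycogen debranching enzyme, 0.201). Nearest to PRX1 were MTL1 (YGR023W, 0.0691), a cell wall stress sensor, and HLR1 (YDR528W, 0.108), and nearest to SOD2 were IRC15 (YPL017C, 0.0486) and PUL3 (YNR062C, 0.0944). For AHP1 they were SMX2 (YFL017W-A, 0.0361), a protein of the spliceosome whose gene lies on chromosome VI, and LSP1 (YPL004C, 0.147), a protein of eisosomes. For GPX2 they were the small nucleolar RNA snR49 (0.199) and IZH4 (YOL101C, 0.222).

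Of 38 other genes of redox defence, listed by function, all were tested. At 37 °C, with 13 libraries, 20 rose, 4 fell and 14 did not pass, beside 47.0% of all genes called higher and 19.0% called lower. Their median change was 0.41 beside 0.28 for all genes. With upper-quartile scaling 17 were higher and 8 lower, beside 4088 of 6365 genes called in either direction. The largest changes were those of CTT1 (YGR088W, 5.92 ± 0.13), the cytosolic catalase, GND2 (YGR256W, 4.53 ± 0.12), a stress-inducible enzyme of the pentose phosphate pathway that makes NADPH, GPX1 (YKL026C, 2.52 ± 0.23), a paralog of GPX2, and GRX1 (YCL035C, 1.73 ± 0.25), a glutaredoxin. CCS1 (YMR038C, -0.73 ± 0.15), the copper chaperone of Sod1, and MXR1 (YER042W, -0.76 ± 0.13), a methionine sulfoxide reductase, were among those that fell. As labelled 14 were higher and 2 lower, beside 38.1% of all genes called in either direction.

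In mNmC 14 of the 38 rose and 5 fell with 13 libraries, 19 not passing, beside 40.7% of all genes called higher and 7.43% called lower. Their median was 0.19 beside 0.25 for all genes. Upper-quartile scaling gave 9 higher and 8 lower, beside 2356 of 6365 genes called in either direction. As labelled 9 were higher and 2 lower, beside 26.9% of all genes called in either direction. With 13 libraries TRX3 (YCR083W, 1.49 ± 0.24), the mitochondrial thioredoxin, had the largest change. As labelled it rose by 1.37 ± 0.22, below the uncalled values of CTT1 (2.28 ± 1.48) and GND2 (2.10 ± 0.98). It read 105.6 to 115.8 FPKM over the wild-type libraries at 30 °C and 294.7 and 322.3 FPKM in mNmC replicates 1 and 2. MXR2 (YCL033C, 1.17 ± 0.24), the mitochondrial methionine sulfoxide reductase, GRX1 (1.08 ± 0.25) and GND2 (0.94 ± 0.12) followed. TRX3, MXR2 and GRX1 are the 3 genes of the list on chromosome III, whose median stood at 0.70, and the part of that shift in their values was not tested. CTT1 rose by 0.47 ± 0.13 there, from 14.8 to 17.0 FPKM in wild type at 30 °C to 21.4 and 22.7 FPKM in mNmC replicates 1 and 2, where 37 °C replicates 1 and 2 read 1003 and 1009.8 FPKM. The factor gene YAP1 (YML007W) rose by 0.60 ± 0.08 in mNmC and by 0.26 ± 0.08 at 37 °C. In mN 7 of the 38 rose and 3 fell, beside the 12.9% and 5.39% of all genes given above, and in mC 5 rose and 2 fell, beside 12.4% and 2.47%, all with 13 libraries, while as labelled limma called none in either.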

How the data were processed

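Messenger RNA of 15 yeast libraries was measured by sequencing. Per the labels' protocols, libraries came from oligo(dT)-selected mRNA, with no stated marking of strands. The deposited values are FPKM, 1 column per library, which the authors scaled to gene length and to counted reads, as the values show: multiplied by R64 gene length and 1 factor for the library, 99.2 to 99.3% of single-exon genes came out at whole reads within 0.01 read. TopHat2 2.0.12, Bowtie2 2.2.3 and HTSeq 0.6.1 appear in the submitters' processing notes, and the sources used here name no genome build. Reads per library had a median of 20675392. FPKM are shares of a library, so a few abundant genes can move all others.

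Symbols came from RefSeq R64, which matched 6048 identifiers. Log2(FPKM + 1) of genes that reached 1 FPKM in 3 or more libraries (6399 of 15 libraries, 6365 of 13) was fitted with a mean per group in limma 3.58.1 (R 4.3.3), with a variance trend, with Benjamini-Hochberg adjustment of p across every tested gene in each of 8 comparisons. Changes are on this log2 scale, which understates those of low genes. A gene was called at adjusted p under 0.05. The design held a branch for counts, not used as the table holds FPKM. The fit was also run on simulated data with correct labels. These held no exchanged pair and no shift of mN replicate 1 or of chromosomes III and VI. Levels, ratios and motifs were computed in pandas 2.3.3 and numpy 2.4.6 under Python 3.11.15, and plots were drawn with matplotlib 3.10.9. Promoter windows start from the start codon, since the R64 gene models hold no untranslated regions. The members, the lists and the choice to leave out 2 libraries were made with earlier results of these data known. The rule for named genes took all 10 members, 3 genes as checks of the labels, up to 4 changes per comparison in the list of 38, and the 2 nearest genes of a member. CCS1, MXR1 at 37 °C, YAP1, CTT1 in mNmC and the medians per chromosome were chosen after their values were seen.

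Alternatives were a pseudocount of 0.1, no filter, upper-quartile scaling, 13 libraries with and without that scaling, leaving out each library, and the replicate number as a block. Chosen after seeing the data were limma voom on recovered reads and 12 libraries, without mN replicate 1 as well. Protein sequences were not used here.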

Additional observations from a re-analysis of the deposited data

How the results depend on the processing

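Of the 10 genes, limma called 3 at 37 °C, 1 in mNmC and none in the other 6 comparisons with the 15 libraries as labelled. A pseudocount of 0.1 and no filter kept these counts, but for TRR1 at 37 °C, which passed without the filter. Leaving out 1 library gave 1 to 6 at 37 °C, 0 to 1 in mN, 1 to 2 in mNmC and 0 in the other 5 comparisons. Beside these, calls over all genes ran from 1152 to 3584 at 37 °C, 8 to 59 in mN and 983 to 2251 in mNmC. They ran from 3 to 68 in mC, and from 871 to 1932 and 409 to 1290 for mNmC against mN and mC. Against 37 °C they stayed at 0, and for the interaction they ran from 97 to 552. With 13 libraries the counts were 7 at 37 °C, 4 in mN, 2 in mC and 5 in mNmC, 3 for mNmC against mN, 2 against mC, 9 against 37 °C and 4 for the interaction. Upper-quartile scaling of the 13 gave 7, 5, 2, 6, 7, 5, 9 and 5 in that order, voom on their recovered reads 7, 6, 2, 6, 3, 3, 9 and 4, and 12 libraries 8, 6, 6, 8, 6, 7, 10 and 5. The calls over all genes moved in these settings too, and their counts are given at the end of this section. With 12 libraries the calls over all genes rose above those of 13 in each of the 8 comparisons. With 15 libraries upper-quartile scaling gave 2 in mNmC and 1 for mNmC against mN, beside 1002 and 1033 of 6399 genes. Voom on the 15 gave 4 at 37 °C and 2 in mNmC. At 37 °C upper-quartile scaling turned 2 higher and 1 lower into 1 higher and 2 lower, losing PRX1 (adjusted p = 0.0546) and gaining TRR1 (adjusted p = 0.00295). Over all genes that scaling called 1905 of 6399 at 37 °C. The cause of these shifts was not tested beyond the libraries left out.

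Some values that passed in another setting had the opposite sign to the fit as labelled. Sign changes of values called in neither fit are not listed. AHP1 (-0.12) and TRX2 (-0.10) for mNmC against mN with 13 libraries are examples. For mNmC against mN, TSA2 stood at -0.24 (13 libraries), -0.48 (with upper-quartile scaling), -0.36 (voom) and -0.25 (12 libraries), AHP1 at -0.36 (13, upper quartile) and -0.24 (12), TRX2 at -0.34 (13, upper quartile) and SOD2 at -0.18 (12). With 12 libraries SOD1 stood at -0.18 in mNmC, and against mC TRX1 at 0.25 and SOD2 at -0.13. The interaction stood at -0.64, -0.80, -0.68 and -0.65 for TSA2 in the same 4 settings, at -0.33 for PRX1 (13, upper quartile) and at -0.37 for SOD2 (12). None of these had passed as labelled.

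Over all genes, 13 libraries raised the calls from 2435 to 4203 at 37 °C, 29 to 1161 in mN, 12 to 945 in mC, 1721 to 3061 in mNmC, 1455 to 3203 and 937 to 2359 for mNmC against mN and mC, 0 to 3621 against 37 °C and 300 to 2228 for the interaction. In the same order the 13 with upper-quartile scaling gave 4088, 1308, 721, 2356, 2754, 2263, 3767 and 2355 of 6365 genes. On the 13, voom gave 3885, 1320, 798, 2483, 2900, 2347, 3684 and 2460, and 12 libraries gave 4790, 1890, 2138, 4071, 3386, 3528, 4318 and 2887. The replicate block took the 10 genes to 2 calls at 37 °C, where PRX1 was lost (adjusted p = 0.0533), and changed no other call among them. It took all genes to 1881 calls at 37 °C, 13 in mN, 3 in mC and 158 for the interaction. Deviations of same-numbered libraries correlated over 0.1 in 3 of 30 pairs (median 0.0137) with 15 libraries and in 4 of 23 (median 0.0231) with 13. The pairing rule, which asks this of every pair, was not met in either. The edgeR and DESeq2 alternatives were not run, as the deposited unit is FPKM.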
